A study of Homo sapiens with 21 samples.

Results

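Aminoacyl-tRNA synthetases are the enzymes that join each amino acid to its transfer RNA. The 36 genes described here, 20 encoding the cytosolic enzymes and 16 the mitochondrial ones, were the rows of the gene count table whose gene name matched a list of synthetase symbols, 36 of 58735 rows. Symbols that end in 2 denote the mitochondrial enzymes. The list is not every synthetase of the cell: TARSL2, a paralog of the threonyl enzyme, is described with other genes of tRNA handling.

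Cells labelled HepG2, an established human line derived from a liver tumour, were exposed for 6 h to coumarin, a plant-derived fragrance compound, in serum-free DMEM. There were 7 groups of 3 libraries, 21 in all: untreated cells at 0 µM and cells at 0.001, 0.01, 0.1, 1, 10 and 100 µM coumarin. All groups shared the line, the medium change to serum-free DMEM and the exposure time, and the labels name no other agent. The design asks which transcripts change with coumarin dose, and the submitters call the 3 samples of a group biological replicates.

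A synthetase first activates its amino acid with ATP and then transfers it to the matching tRNA, which an elongation factor carries to the ribosome. In animal cells several cytosolic synthetases are held with 3 scaffold proteins in a multisynthetase complex, while mitochondria import a separate set of enzymes, all encoded in the nucleus, to translate the mitochondrial messages. Uncharged tRNA is sensed by the kinase GCN2, which raises translation of the transcription factor ATF4, and many cytosolic synthetase genes are known targets of ATF4.

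Total gene counts were 27984517 to 43704155 per library, and all 36 genes passed the filter on low counts that left 16196 genes for testing. Defining transcripts of the labelled cell type were listed at or near 0: of 12 hepatocyte genes, 0 reached 1 CPM (counts scaled by library size), and ALB, SERPINA1, FGB and AHSG had 0 counts in all 21 libraries. KRT8 and KRT7, keratins of simple epithelia, stood at 2327 and 1213 CPM and the collagen gene COL3A1 at 937 CPM, while EPCAM had 0 counts and COL1A2 had 1. EEF1G, an elongation factor gene that cells in general express, is also listed at 0, so a 0 alone need not mean no expression. Why genes stood at 0 was not tested. Hepatocyte genes that did hold reads were also low, with totals over all 21 libraries of 21 counts for APOA2, 15 for AFP and 9 for HNF4A. The label was kept, and every value belongs to the sequenced cells, whatever their identity.

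The promoters of the synthetase genes were searched for TGATGNAA, the core of the element that ATF4 binds with a C/EBP partner, and for its narrower form TGATGCAA. RefSeq windows of GRCh38.p14, from 250 bases before to 50 after each start, were at hand for 30 of the 36 genes, and both strands were read. The core lay in 8 of the 30 genes, 7 of 16 cytosolic and 1 of 14 mitochondrial (YARS2), against 4.46% of all 27305 genes with windows. Every TGATGCAA match is also a TGATGNAA match, and the narrower form lay in 6 of the 30 genes, against 1.08% of all genes. The 7 cytosolic stretches are shown so that the element can be set beside the expression of each gene. They run 5′ to 3′ along the gene strand and the capitals mark the match, which reads as the reverse complement where the core is on the opposite strand.
AARS, chr16:70289680-70289733, minus strand: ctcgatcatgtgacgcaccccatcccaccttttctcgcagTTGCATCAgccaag
CARS, chr11:3057412-3057465, minus strand: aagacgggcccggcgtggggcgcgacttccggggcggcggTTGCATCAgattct
GARS, chr7:30594805-30594858, plus strand: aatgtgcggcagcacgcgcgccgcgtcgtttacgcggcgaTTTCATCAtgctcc
MARS, chr12:57488024-57488077, plus strand: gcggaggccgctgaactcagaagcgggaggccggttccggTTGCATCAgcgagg
TARS, chr5:33440927-33440980, plus strand: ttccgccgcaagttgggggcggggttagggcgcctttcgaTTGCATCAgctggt
IARS, chr9:92293697-92293750, minus strand: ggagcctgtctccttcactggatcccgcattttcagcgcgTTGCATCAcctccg
NARS, chr18:57621809-57621862, minus strand: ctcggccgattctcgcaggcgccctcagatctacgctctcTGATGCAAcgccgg
Relative to the RefSeq start of its window, the match began 187 bases before in AARS, 33 in GARS, 13 in IARS, 4 in MARS and 2 in CARS. In TARS it began at base 3 after that start and in NARS at base 15. GARS, CARS and TARS had 2 windows each, and the match lay only in window 2 of GARS and window 1 of CARS and TARS. The start of the window that held the match lay inside the gene's annotated span in each of these genes. The match itself also lay inside that span in all but AARS. The annotated span of MARS begins at base 57475445, far before the stretch shown. Such a match is a run of letters and not a measured binding site.

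The synthetase transcripts covered a wide range of levels. Per gene length, the highest mean over all 21 libraries was 109 ± 6.70 FPKM (fragments scaled by gene length and library size, SD) for FARSA, the alpha subunit of the phenylalanyl enzyme. AARS (alanyl) and TARS (threonyl) followed at 103 ± 7.42 and 103 ± 4.75 FPKM. These means pool all doses, and the order depends on the dose: AARS averaged 119 ± 3.65 and FARSA 114 ± 4.56 FPKM at 100 µM, against 96.8 ± 4.70 FPKM for AARS and 105 ± 8.33 FPKM for FARSA at 0 µM (SD, n = 3 each). At either dose the SD ranges of these 2 genes overlapped. The lowest cytosolic level was that of CARS (cysteinyl) at 3.56 ± 0.567 FPKM. Among the mitochondrial genes IARS2 (isoleucyl) was highest at 65.9 ± 2.07 FPKM, and SARS2 (seryl) and PARS2 (prolyl) were lowest at 2.18 ± 0.272 and 1.46 ± 0.168 FPKM. Cytosolic and mitochondrial enzymes for the same amino acid formed 17 pairs, with EPRS paired to EARS2 and PARS2, and FARS2 to FARSA and FARSB. The cytosolic member had the higher FPKM in 14 of these pairs, which reuse those genes. The exceptions were CARS, at 0.412 times CARS2, IARS, at 0.625 times IARS2, and YARS, at 0.758 times YARS2. The gene length used, such as 8212 bases for YARS and 2152 for YARS2, need not be that of the transcripts present. Without it the order changed for 2 of these: YARS averaged 199 CPM and YARS2 68.8, and IARS 297 and IARS2 268. CARS stayed lower, at 34.8 CPM against 88.5 for CARS2.

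**Figure D1:**
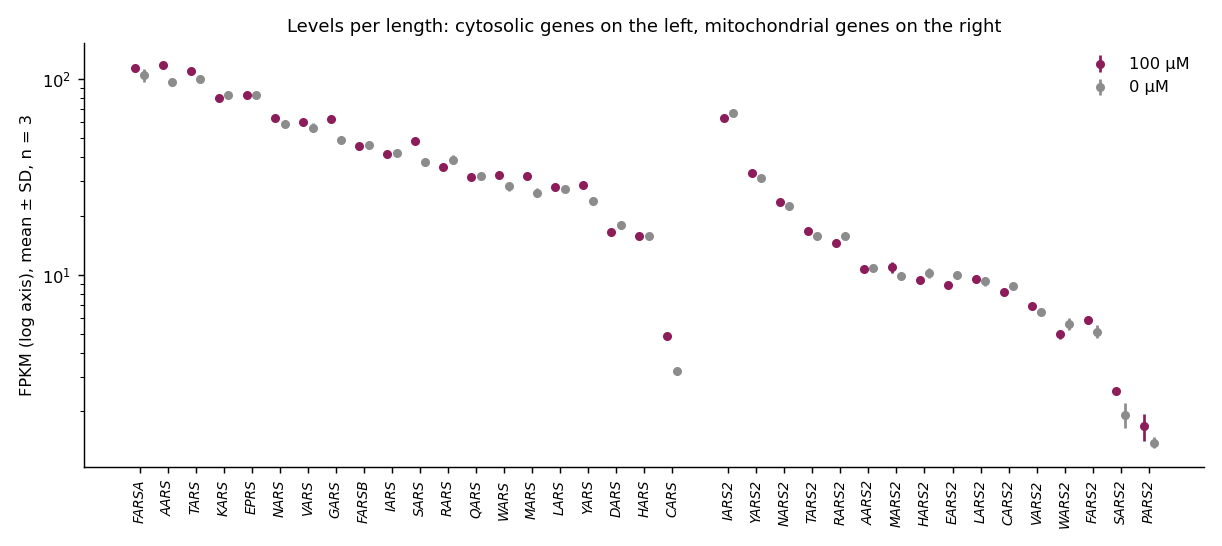
Deposited FPKM of the 36 synthetase genes on a log axis, mean ± SD of 3 libraries at 100 µM (purple, left point of each gene) and at 0 µM (grey, right point), cytosolic genes first. FARSA averaged 114 FPKM at 100 µM and 105 FPKM at 0 µM, while CARS averaged 4.85 FPKM at 100 µM and 3.20 FPKM at 0 µM.

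At 100 µM coumarin a subset of the cytosolic synthetase transcripts was higher than in untreated cells, by 10.2% (TARS) to 52.0% (CARS), and the mitochondrial genes lay on both sides of their controls, with SARS2 higher by 32.9% and EARS2 lower by 10.6%. Of the 20 cytosolic genes 8 rose and 0 fell, and of the 16 mitochondrial genes 2 rose (SARS2 and FARS2) and 1 fell (EARS2), in edgeR's quasi-likelihood test with Benjamini-Hochberg adjustment at 0.05 over all genes. Together 11 of the 36 passed, against 8.58% of all genes tested, with 10 higher against 3.77% and 1 lower against 4.82%. The median log2 fold change was 0.11 for the cytosolic genes and 0.06 for the mitochondrial genes, against 0.00 for all genes tested. The same 11 genes passed with DESeq2 size factors in place of TMM scaling. In bulk RNA, fewer cells of a type and less RNA per cell cannot be told apart.

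**Figure D2:**
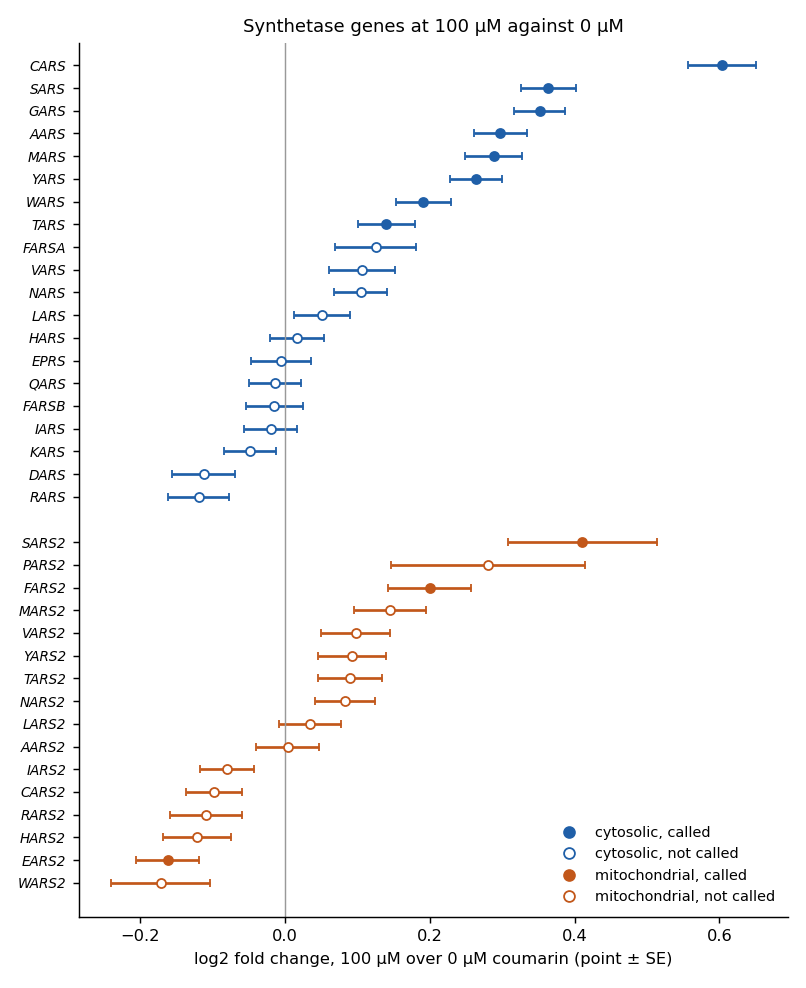
Log2 fold change of each synthetase gene at 100 µM over 0 µM coumarin with its standard error, cytosolic genes (blue) above mitochondrial genes (orange); filled points passed the adjusted threshold of 0.05. CARS lies at 0.60, the other 7 filled cytosolic points lie between 0.14 and 0.36, and EARS2 is the filled point below 0, at -0.16.

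CARS, which charges tRNA with cysteine, had the largest rise of the cytosolic genes. It stood at 48.3, 48.8 and 45.9 CPM in the 100 µM libraries, against 31.0, 30.7 and 32.2 CPM in the 0 µM libraries. All 3 treated libraries were above every one of the other 18 libraries of the series. The log2 fold change was 0.60 (SE 0.047, edgeR adjusted p = 3.13e-11), which placed CARS 480th of 16196 genes by fold change and 14th by p. The gene (ENSG00000110619) lies at chr11:3000922-3057613 on the minus strand of GRCh38.

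GARS encodes the glycyl enzyme of both the cytosol and the mitochondria, and it stood at 250.5, 256 and 253 CPM at 100 µM, against 200.4, 197 and 197 CPM at 0 µM. Its log2 fold change was 0.35 (SE 0.035, edgeR adjusted p = 8.58e-09). The groups lay far apart relative to the spread of the libraries, whose SD was 2.71 CPM at 100 µM and 1.81 CPM at 0 µM. The lysyl gene KARS, the other gene that serves both compartments, did not pass, with a log2 fold change of -0.05 (SE 0.036, edgeR adjusted p = 0.451). Its libraries held 322, 316 and 317 CPM at 100 µM, against 341, 314 and 332 CPM at 0 µM, and the groups overlapped.

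SARS (seryl) stood at 181, 183 and 179 CPM at 100 µM, against 146, 136 and 140.1 CPM at 0 µM. AARS (alanyl) stood at 534, 505 and 527 CPM at 100 µM, against 427, 404 and 442 CPM at 0 µM. YARS (tyrosyl) stood at 227, 231 and 231 CPM at 100 µM, against 190.0, 189 and 195 CPM at 0 µM. In all 3 genes the lowest treated library was above the highest of the other 18. The log2 fold changes were 0.36 (SE 0.038, edgeR adjusted p = 2.29e-08) for SARS, 0.30 (SE 0.037, adjusted p = 8.73e-07) for AARS and 0.26 (SE 0.036, adjusted p = 5.10e-06) for YARS.

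WARS and TARS, for tryptophan and threonine, rose least of the 8 cytosolic genes. WARS stood at 203, 193 and 204 CPM at 100 µM, against 180.3, 167 and 179 CPM at 0 µM (log2 fold change 0.19, SE 0.038, edgeR adjusted p = 0.00105). TARS stood at 608, 624 and 621 CPM at 100 µM, against 584, 551 and 547 CPM at 0 µM (log2 fold change 0.14, SE 0.039, edgeR adjusted p = 0.0212). The treated libraries of both genes were above all 3 controls, and for WARS also above the other 15 libraries. Exon bases shared with opposite-strand genes cannot be assigned without strand use, and they made up 2.38% of GARS (GARS-DT), 4.51% of WARS (WDR25) and 4.82% of YARS (S100PBP). Those 3 partners differed by 0.668, 0.545 and 0.280 CPM between the groups, against 54.7 CPM for GARS, 24.8 CPM for WARS and 38.4 CPM for YARS. WARS also shares 6.06% with AL157871.4, which is listed at 0 CPM. CARS shares 2.04% with CARS-AS1, at 0.0476 CPM, and 0.757% with AC108448.3, at 0.357 CPM. The call of TARS was lost when 0 µM replicate 2 or 3, or 100 µM replicate 2 or 3, was left out, with edgeR adjusted p of 0.101, 0.0663, 0.0680 and 0.0750.

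At 100 µM against 0 µM, 1 of the 8 synthetases of the multisynthetase complex passed with edgeR, against 8.58% of all genes tested. This was MARS, which charges tRNA with methionine. It stood at 223, 212 and 224 CPM at 100 µM, against 183, 169.9 and 187 CPM at 0 µM (log2 fold change 0.29, SE 0.039, edgeR adjusted p = 4.23e-06), and the groups did not overlap. Its exons share 355 of 7028 bases with DDIT3, an ATF4-pathway gene on the opposite strand that also rose. They also share 519 bases with ARHGAP9 on the opposite strand, at 0.0268 CPM, and 63 with MIR6758, listed at 0 CPM. Strand use in the counting is not given in the sources used here. DDIT3 averaged 18.1 CPM at 100 µM and 8.93 CPM at 0 µM, a difference of 9.13 CPM, while MARS differed by 39.8 CPM.

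The other 7 genes of the complex had log2 fold changes from -0.12 (RARS, arginyl) to 0.05 (LARS, leucyl). RARS stood at 115, 120.1 and 121 CPM at 100 µM, against 136, 127 and 124 CPM at 0 µM, and its 3 treated libraries were below all other 18, but it did not pass (edgeR adjusted p = 0.0686). The 7 also include EPRS, which joins the glutamyl and prolyl enzymes in 1 protein, at -0.01, IARS at -0.02, QARS (glutaminyl) at -0.01, KARS at -0.05 and DARS (aspartyl) at -0.11. The median of the 8 was -0.02, against 0.17 for the 12 cytosolic genes outside the complex, of which 7 rose. Over all genes tested, 3.77% were called higher and 4.82% lower. The complex's scaffold genes AIMP1, AIMP2 and EEF1E1 did not pass, at 0.02, 0.15 and -0.09. The difference between the complex and the rest was not tested.

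The 5 cytosolic genes outside the complex that did not pass were FARSA at 0.13, VARS (valyl) at 0.11, NARS (asparaginyl) at 0.10, HARS (histidyl) at 0.02 and FARSB, the beta subunit of the phenylalanyl enzyme, at -0.01 on the log2 scale. NARS came nearest, with an edgeR adjusted p of 0.0679. Its libraries stood at 248, 257 and 250.1 CPM at 100 µM, against 242, 230.0 and 229.9 CPM at 0 µM, without overlap. DESeq2 called NARS at this dose, with an adjusted p of 0.0353.

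Summed over the 20 cytosolic genes, the level was 1053, 1047 and 1051 FPKM in the 100 µM libraries, against 996, 939.7 and 977 FPKM in the 0 µM libraries. The 16 mitochondrial genes summed to 229.7, 229 and 233 FPKM at 100 µM, against 234, 230.4 and 229 FPKM at 0 µM. The cytosolic sums at 100 µM were above those of all other libraries, whose highest was 1017 FPKM at 10 µM, and the mitochondrial sums overlapped. These sums are descriptions and were not tested.

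Among the mitochondrial genes SARS2, the seryl enzyme, had the largest rise from a low level: 8.08, 7.87 and 8.21 CPM at 100 µM, against 5.26, 5.92 and 7.01 CPM at 0 µM (log2 fold change 0.41, SE 0.10, edgeR adjusted p = 0.00930). The controls spread widely, and without 0 µM replicate 1 the adjusted p was 0.0994. SARS2 shares 46.2% of its exon bases with AC011455.2 on its own strand, which had 0 counts. It shares 10.8% with MRPS12 on the other strand, at 69.7 CPM. Between 100 µM and 0 µM MRPS12 differed by 0.829 CPM and SARS2 by 1.99 CPM, so both the level and the rise of SARS2 are uncertain.

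FARS2, the phenylalanyl enzyme, stood at 29.2, 26.6 and 27.6 CPM at 100 µM, against 25.3, 22.1 and 24.9 CPM at 0 µM (log2 fold change 0.20, SE 0.058, edgeR adjusted p = 0.0250). EARS2, the glutamyl enzyme, fell to 48.8, 49.5 and 50.1 CPM at 100 µM, against 54.2, 56.4 and 55.5 CPM at 0 µM (log2 fold change -0.16, SE 0.044, edgeR adjusted p = 0.0153). Neither gene's groups overlapped. The FARS2 call by edgeR was lost without 0 µM replicate 2 (adjusted p = 0.192), 100 µM replicate 1 (0.149) or 100 µM replicate 3 (0.0622), and the EARS2 call without 0 µM replicate 2 (0.0658), 100 µM replicate 1 (0.0840) or 100 µM replicate 2 (0.0501). EARS2 also shares 6.46% of its exon bases with UBFD1 on the opposite strand, which stood at 167 CPM at 100 µM and 173 CPM at 0 µM. The other 13 mitochondrial genes did not pass, with log2 fold changes from -0.17 (WARS2, tryptophanyl) to 0.28 (PARS2, SE 0.13).

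Without a fitted model, 16 of the 36 genes had all 3 libraries at 100 µM above all 3 at 0 µM, against 13.1% of all genes tested, and 8 had all 3 below, against 13.9%. Set against all other 18 libraries, 9 genes were above, against 2.41% of all genes, namely AARS, CARS, GARS, MARS, SARS, WARS, YARS, FARS2 and SARS2. A further 3, RARS, EARS2 and HARS2 (histidyl), were below all 18, against 3.31%. HARS2 shares 11.7% of its exon bases with HARS on the opposite strand, at 122 CPM. Sums of epithelial and mesenchymal marker genes also differed between these groups, while those of hepatocyte genes overlapped. Of the 5 epithelial markers 3 reached 1 CPM, and of the 6 mesenchymal markers 5 did. The 5 epithelial markers summed to 4030.1 to 4152 CPM at 100 µM and 4205 to 4559 CPM at 0 µM, and the 6 mesenchymal markers to 1307 to 1352 CPM at 100 µM and 1390.2 to 1404 CPM at 0 µM. KRT8 was the largest part of the epithelial sums and COL3A1 of the mesenchymal sums, at means of 2327 and 937 CPM over all libraries. The 12 hepatocyte markers summed to 0.0569 to 0.0660 CPM at 100 µM and 0.0350 to 0.110 CPM at 0 µM. A total of 3 counts corresponds to 0.0686 to 0.107 CPM, so the overlap of the hepatocyte sums cannot show that they were equal. The share of such sums over all genes was not taken. The part of these markers in the synthetase values was not tested.

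**Figure D3:**
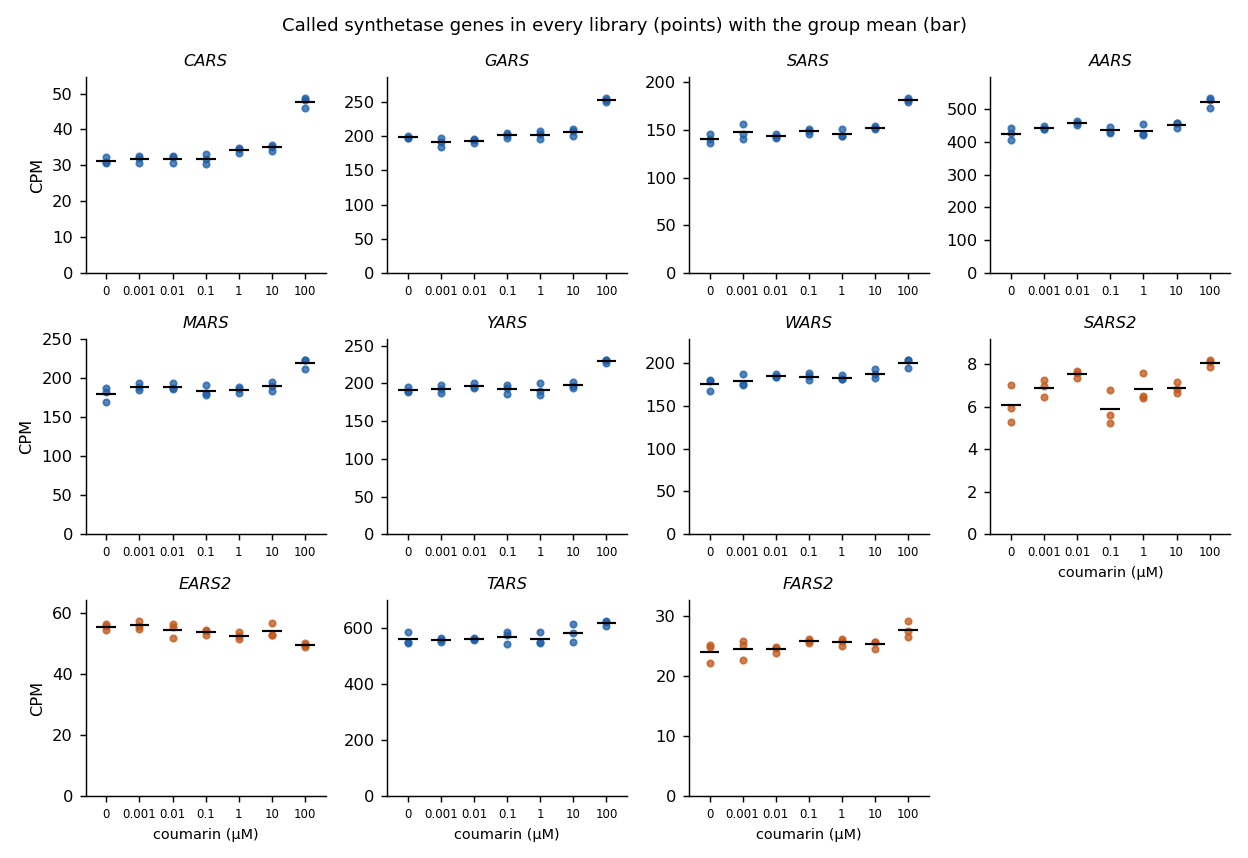
TMM-scaled CPM of the 11 synthetase genes that passed at 100 µM against 0 µM, in every library (points) with the mean of 3 (bar), over the 7 doses from 0 to 100 µM; blue, cytosolic; orange, mitochondrial. CARS holds 30.3 to 35.8 CPM at 0 to 10 µM and 45.9 to 48.8 CPM at 100 µM.

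For 4 of the 17 pairs the cytosolic transcript was higher relative to its mitochondrial partner in every 100 µM library than in any other library. The cytosolic genes of these 4 pairs were, by themselves, already above all other 18 libraries. The share of such ratios over all genes was not taken. The log2 ratio of CARS to CARS2, from CPM, averaged -0.80 ± 0.067 at 100 µM and -1.51 ± 0.045 at 0 µM (SD, n = 3 each), a difference of 0.70. For WARS over WARS2 it averaged 3.43 ± 0.090 at 100 µM and 3.06 ± 0.16 at 0 µM, and for AARS over AARS2 3.53 ± 0.012 at 100 µM and 3.23 ± 0.098 at 0 µM. For YARS over YARS2 it averaged 1.72 ± 0.025 at 100 µM and 1.55 ± 0.016 at 0 µM. The ratio differed by 0.14 for MARS over MARS2, 0.05 for TARS over TARS2 and -0.05 for SARS over SARS2, in which both partners rose. It differed by -0.27 for EPRS over PARS2 and by -0.22 for FARSB over FARS2. Part of the WARS difference lay in WARS2, whose log2 fold change of -0.17 did not pass (edgeR adjusted p = 0.115). The ratios are descriptions and were not tested.

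**Figure D4:**
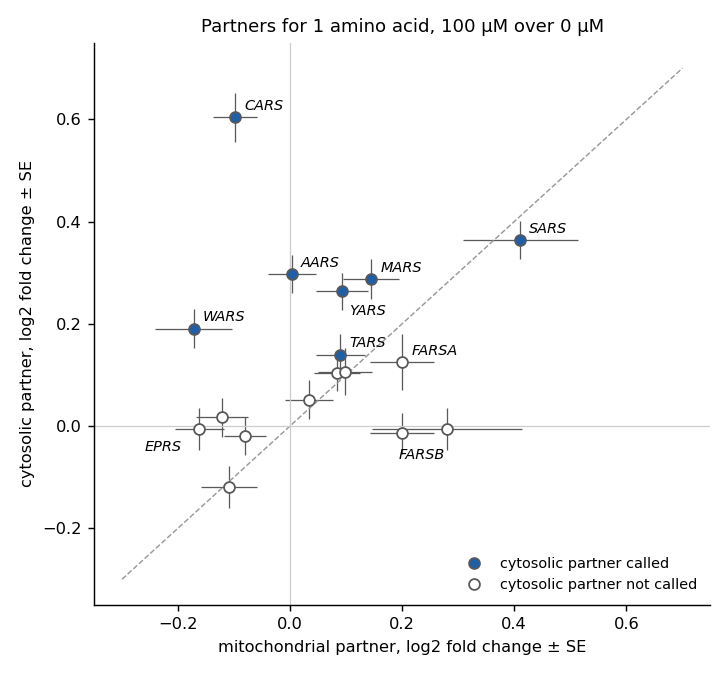
Log2 fold change at 100 µM over 0 µM of the cytosolic member (vertical) against the mitochondrial member (horizontal) of 17 pairs for 1 amino acid, with standard errors; filled points have a cytosolic member that passed, and the dashed line marks equal change. CARS lies farthest from the line, at 0.60 against -0.10 for CARS2, and SARS lies near it, at 0.36 against 0.41 for SARS2.

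Below 100 µM no synthetase gene passed. At 10 µM against 0 µM the count was 0 of 36 with edgeR, DESeq2 and limma, against 0.321% of all genes with edgeR, and 4 of the 36, all higher, had an unadjusted p under 0.05, against 12% of all genes. CARS had the lowest adjusted p, with 35.8, 34.1 and 35.2 CPM at 10 µM, against 31.0, 30.7 and 32.2 CPM at 0 µM (log2 fold change 0.16, SE 0.048, edgeR adjusted p = 0.144). CARS, GARS, SARS, WARS and YARS2 had all 3 libraries at 10 µM above all 3 controls, 5 of 36 against 8.78% of all genes, and 0 of 36 were below, against 7.9%.

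At 0.001, 0.01, 0.1 and 1 µM against 0 µM, 0 of 36 genes passed with edgeR, DESeq2 or limma, and edgeR called 0% of all genes at each dose. The numbers with an unadjusted edgeR p under 0.05 were 2, 3, 2 and 1, against 8.21%, 8.74%, 6.09% and 3.76% of all genes. The largest difference at these doses was that of SARS2 at 0.01 µM, with a log2 fold change of 0.32 and an edgeR adjusted p of 0.544. Its libraries held 7.68, 7.56 and 7.36 CPM at 0.01 µM, against 5.26, 5.92 and 7.01 CPM at 0 µM. The mean of the 12 libraries of 0.001 to 1 µM gave 0 calls against 0 µM with edgeR, DESeq2 and limma, against 0% of all genes. At an unadjusted edgeR p under 0.05, 1 gene, YARS2, differed, against 7.45% of all genes.

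**Figure D5:**
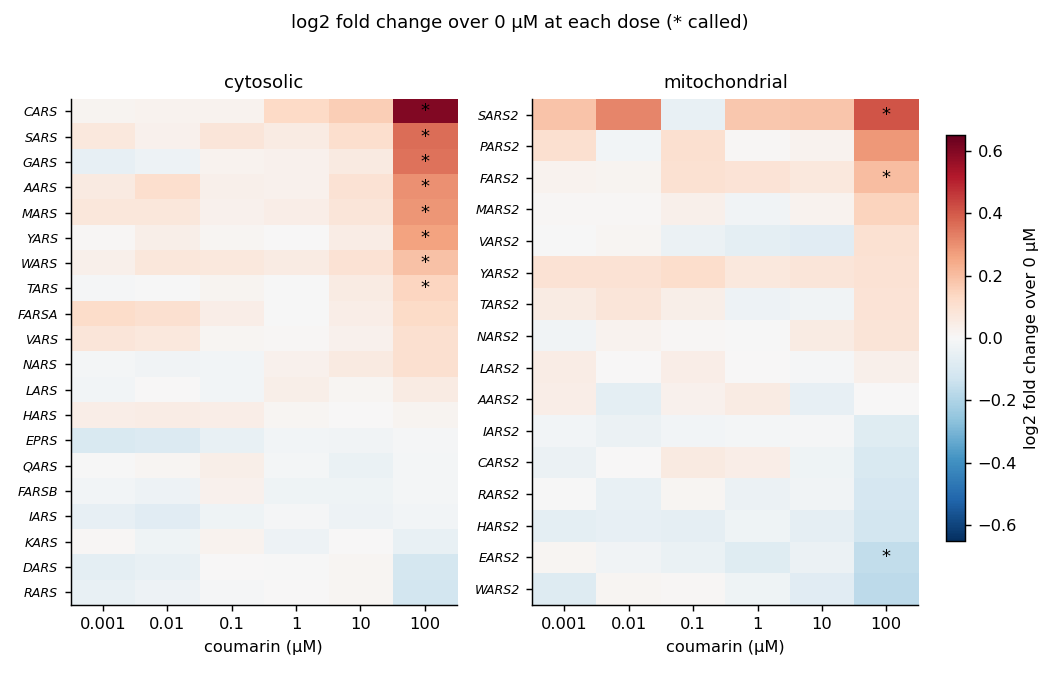
Log2 fold change over 0 µM of each synthetase gene (rows; cytosolic on the left, mitochondrial on the right) at the 6 coumarin doses (columns, low to high); red is higher and blue lower than 0 µM, and a star marks an adjusted p under 0.05. All 11 stars stand in the 100 µM columns, and CARS has 0.13 at 1 µM, 0.16 at 10 µM and 0.60 at 100 µM.

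Between the highest doses, 7 of 36 genes rose and 0 fell at 100 µM against 10 µM, against 2.03% of all genes higher and 2.51% lower. CARS differed by 0.44 (SE 0.047, edgeR adjusted p = 5.42e-08), GARS by 0.29, SARS by 0.25, YARS by 0.22, MARS by 0.21 and AARS by 0.20 on the log2 scale. The other gene was VARS2, the mitochondrial valyl enzyme, with 58.0, 56.0 and 56.7 CPM at 100 µM, against 50.1, 52.6 and 48.8 CPM at 10 µM (log2 fold change 0.17, SE 0.048, edgeR adjusted p = 0.0307). Against 0 µM, VARS2 did not pass at 100 µM (log2 fold change 0.10, edgeR adjusted p = 0.215). Of its exon bases 22.0% are shared with GTF2H4 on the same strand, which stood at 0.380 CPM.

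Set against the mean of the 12 libraries of 0.001 to 1 µM, 13 of 36 genes were higher at 100 µM and 2 lower, against 4.25% and 5.58% of all genes. Beyond the 11 genes already described these were NARS (log2 fold change 0.11, edgeR adjusted p = 0.00844), MARS2 (0.14, adjusted p = 0.0181) and VARS2 (0.12, adjusted p = 0.0358), which were higher, and CARS2 (-0.11, adjusted p = 0.0134), which was lower. The number was 9 of 36, all higher, without 100 µM replicate 1. At 10 µM the same contrast gave 0 of 36 with edgeR, DESeq2 and limma, against 0.222% of all genes, and 3 genes had an unadjusted edgeR p under 0.05, against 8.62% of all genes. The contrast of 100 µM with the lower doses shares its 100 µM libraries with the comparison against 0 µM.

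Over the 18 treated libraries, the slope of log2 expression on log10 dose passed for 9 genes upward and 1 downward, against 1.93% and 2.52% of all genes. By this fitted slope CARS rose by 0.10 per 10-fold of dose (SE 0.0079, edgeR adjusted p = 6.53e-11) and GARS by 0.07. SARS rose by 0.05, YARS by 0.04 and AARS, MARS, NARS, TARS and WARS by 0.02 to 0.03, and EARS2 fell by 0.03. The steps between doses were uneven. From 0.001 to 100 µM the log2 fold change of CARS over 0 µM was 0.02, 0.02, 0.02, 0.13, 0.16 and 0.60. That of GARS was -0.05, -0.03, 0.02, 0.03, 0.06 and 0.35. In the F-test over all 7 groups 8 of 36 passed, against 4.65% of all genes: CARS, GARS, SARS, AARS, YARS, MARS, WARS and SARS2. The slope and the F-test both share the 100 µM libraries with the comparison of 100 µM against 0 µM.

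The 13 cytosolic synthetases known as ATF4 targets held all 8 that rose, against 3.77% of all genes tested, with a median log2 fold change of 0.19, and the 7 others had 0 calls and a median of -0.01. That list was drawn up with results of these data known, so the split is a description. The 5 of the 13 that did not pass were EPRS, IARS, LARS, NARS and VARS. ATF4 itself averaged 476 ± 6.37 CPM at 100 µM and 378 ± 17.9 CPM at 0 µM (SD, n = 3 each), and its log2 fold change was 0.34 (SE 0.041, edgeR adjusted p = 5.40e-07). The GCN2 gene EIF2AK4, its coactivator GCN1 and IMPACT, an inhibitor of GCN2, did not pass, at -0.10, 0.01 and 0.03. Of 15 other ATF4 targets 14 rose and 0 fell, with a median of 0.80, against 3.77% higher, 4.82% lower and a median of 0.00 for all genes tested. Those with the smallest p were CHAC1 (2.88), STC2 (1.18), SESN2 (1.43) and ATF3 (1.77). CARS, at 0.60, had the largest log2 fold change of the 13 synthetases and lay below the median of 0.80 of the other targets. The list of 15 other targets was also chosen with results of these data known, so its count and median are descriptions.

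Beside the sequences given above, 5 of the 9 synthetase genes that rose and had a promoter window held TGATGNAA (AARS, CARS, GARS, MARS and TARS). SARS, WARS, SARS2 and FARS2 rose without it in the window, and for YARS no window was at hand. IARS and NARS held TGATGCAA and did not pass at 100 µM against 0 µM. Among all genes with a window, 5.25% of the 476 called higher and 3.63% of the 606 called lower at 100 µM held TGATGNAA, against 2.69% of those tested. Of 13 of the other ATF4 targets with a window, 4 held it. The absence of the letters from a window says nothing about binding elsewhere.

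Other genes that handle tRNA were compared at 100 µM against 0 µM, where 8.58% of all genes tested passed. Of 5 tested cytosolic elongation factor genes (EEF1G, the other one listed, was not tested), EEF2 rose, at 0.16 (SE 0.045, edgeR adjusted p = 0.0257), and EEF1A1, which carries charged tRNA to the ribosome, stood at 0.00 on the log2 scale. Of 12 tRNA export and end-processing genes, POP1, a subunit of ribonuclease P, fell by 0.21 (SE 0.052, edgeR adjusted p = 0.00806), and XPOT, the tRNA exporter, stood at 0.05. The 4 selenocysteine charging genes, the 5 tested proofreading genes and TARSL2 did not pass, with values from -0.18 (DTD2) to 0.19 (EEFSEC). These lists hold few genes, and the number of calls in each was not tested against the rest.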

How the data were processed

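Poly(dT)-selected RNA of 21 samples was sequenced. The deposited gene counts are unnormalized whole numbers. The deposited FPKM are the authors' own scaling of those counts, by gene length and by a single constant for each library. Per the submitters' processing notes, HISAT2, DESeq2 and GRCh38 are listed, with no role stated. The counting tool, its strand setting and its annotation version were not given in the sources used here. Coordinates of all 36 genes matched GENCODE v29.

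Each library took its group from its label. Counts were filtered with filterByExpr, scaled by TMM and fitted with edgeR 4.0.16 in R 4.3.3 as 1 quasi-likelihood model with robust estimation over all 21 libraries (14 residual degrees of freedom), after a test on simulated data. Benjamini-Hochberg adjustment ran over 16196 genes at 0.05. The CPM printed are scaled by TMM. A total of 3 counts corresponds to 0.0686 to 0.107 CPM, counting error only. The 3 replicate pairs of each group, 21 in all, had a chi-square of 2.74 to 12.8 per degree of freedom, above sampling noise, so every library counted as a sample. The submitters call them biological replicates without naming separate cultures, and p-values then measure the spread between these samples, which may be technical.

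Values in every library are given for genes called at 100 µM against 0 µM, at 10 µM, between both doses or for slope, with levels for the highest and lowest genes and for partners. The library values of KARS, RARS and SARS2 at 0.01 µM were chosen after they were seen. The synthetase list and the other gene lists were chosen with earlier results of these data known, and nothing rests on their direction. The list of other mitochondrial charging genes is not reported here. Promoter windows came from RefSeq (GRCh38.p14), and newer symbols such as AARS1 were matched through the gene name table. Alternatives were DESeq2 1.42.0 and its size factors, limma 3.58.1 on log2(FPKM + 1) and log2(FPKM + 0.1), other filters on low counts, gene length offsets, a block for replicate number, fits of the compared libraries alone, each library left out, and no robust estimation. Figures were drawn with matplotlib 3.10.9.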

Additional observations from a re-analysis of the deposited data

How the results depend on the processing

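At 100 µM against 0 µM the number of synthetase genes called was 11 to 13 under the alternatives that kept all libraries and 8 to 13 with 1 library left out. AARS, CARS, GARS, MARS, SARS, WARS and YARS were called in all 31 alternatives, EARS2 and FARS2 were lost in 3, SARS2 in 1 and TARS in 6, among them both limma fits (adjusted p 0.0559 and 0.0567). NARS, not called in the edgeR fit reported, was called in 4, with adjusted p of 0.0337 among genes of mean log2 CPM of at least 1, 0.0476 without 0 µM replicate 1, 0.0376 without 0.1 µM replicate 1 and 0.0353 with DESeq2. Against the mean of 0.001 to 1 µM the number was 9 to 17 with 1 library left out, the lowest without 100 µM replicate 1. Against 10 µM it was 6 to 8, for slope 7 to 10 and for the F-test 6 to 9, with 12 by DESeq2. Below 100 µM every alternative gave 0. TGATGCAA in place of TGATGNAA gave 6 genes in place of 8. The fit without robust estimation was chosen after seeing the data and gave 11. With the replicate number as a block the count stayed at 11, and it changed no call of these genes. Same-numbered samples did not deviate together: 13 of 63 pairs had r above 0.1 (range -0.301 to 0.318), and 8 of 21 libraries correlated best with their own number. No direction reversed among the 13 genes followed singly at 100 µM against 0 µM. Depth limits PARS2 and SARS2 most, at 85 to 153 and 169 to 311 counts per library.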
